A study of Mus musculus with 2 samples.

Results

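The 10 transcription factors described here are those known for steering T cells between a naive or memory state and an effector state. *Tcf7*, *Lef1*, *Satb1*, *Bach2* and *Id3* belong to the naive and memory side, and *Id2*, *Tbx21*, *Eomes*, *Prdm1* and *Zeb2* to the effector side. They were chosen by name, as 10 of the 27998 genes counted in both libraries, and none of them was used to sort cells into classes. The cells were CD45+ leukocytes sorted from the brains of untreated C57Bl/6 mice at postnatal day 21. WT mice were galc+/+ littermates, and twi mice were galc-/- and lack the lysosomal enzyme galactosylceramidase in every cell, a model of Krabbe disease. Cells of 2 to 3 animals were pooled per genotype and read as 1 droplet library with the 10x Genomics single cell 3′ chemistry, so no replicate error exists. Intervals below are 95% intervals that cover counting error only, and no p-value is given.

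TCF-1 (encoded by *Tcf7*) and LEF-1 bind the same DNA motif and keep T cells quiescent and able to renew. BLIMP-1 (encoded by *Prdm1*), T-bet (*Tbx21*) and ZEB2 drive the cytotoxic program, while EOMES is shared by effector and memory cells. ID2 and ID3 have no DNA-binding domain; they bind E proteins and hold them off their E-box sites, ID3 in naive and memory cells and ID2 in effector cells. NK cells and innate-like T cells depend on ID2 as well.

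Barcodes with at most 15% mitochondrial unique molecular identifiers (UMIs, the counted molecules) were kept, 1271 of 1278 in WT and 1207 of 1220 in twi. No barcode was shared between the libraries. WT held 3741477 and twi 4791200 UMIs in kept cells, with medians of 2222 and 3182 per cell. Cells were gated on marker UMIs: CD8 T cells on a *Cd3* gene with *Cd8a* or *Cd8b1* and without *Cd4*, naive where a set of 4 genes that includes *Ccr7*, *Igfbp4* and *Dapl1* outweighed *Ccl5*, *Nkg7*, *Gzma*, *Gzmb*, *Gzmk* and *Cxcr6*, and effector where the second set reached 3 UMIs and outweighed the first. There were 47 naive, 45 effector and 9 cycling CD8 T cells in WT and 54, 336 and 37 in twi, and 12 and 10 CD8 T cells stayed unresolved. The CD4 T gate took 49 and 72 cells, the γδ T gate 10 and 44, and the NK gate 67 and 59. Of genes kept out of the gates, *Cxcr3*, a chemokine receptor of activated T cells, read 191 and 313 CPM (UMIs of the gene per 1000000 UMIs of the class) in WT and twi effector cells against 24.3 and 57.5 in naive cells. Of naive genes kept out of the gates, *S1pr1* read 147 and 53.9 CPM in WT and twi effector cells against 146 and 256 in naive cells, and *Il7r* 437 and 144 against 473 and 491, so neither set the WT gates apart. *Klrd1*, an NK receptor gene, read 1490 and 1395 CPM in the NK gate. It was also present in CD8 T cells, at 469 and 472 CPM in effector and 358 and 449 CPM in naive cells. *Trbc2* and *Tcrg-C1* are not in the gene list used here, and the γδ gate rests on 7 of its 9 genes. *Galc* itself had 4 UMIs in WT and 8 in twi, and a 3′ count does not read the mutation, so it checks nothing about the labels.

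The naive marker *Ccr7* was carried by 55.6% of WT effector-gated cells but by 15.8% of twi ones. *Xist*, transcribed in female cells, was found in 64.9% of twi effector cells and in 0% of WT ones. In twi it was found in 62.2% of cycling but only 29.6% of naive CD8 T cells, and in WT in 0% of both. The twi classes thus differed in their share of female cells. The part of sex in the results was not tested, but values within cells that carry a Y-linked transcript and no *Xist* are given beside many of them, for 19 WT and 42 twi effector cells. RNA of other cells was also present: a list of 6 neutrophil genes led by *S100a8* and *S100a9* gave 5.24 UMIs per WT effector cell and 1.85 per twi one, and its part in the results was not tested. For *Lef1* that background was low, since 0 of 197 WT and 0 of 48 twi neutrophil-gated cells held a UMI, which at 3 counts allows shares of cells with a UMI of up to 1.52% and 6.25%. For *Tcf7* it was 0% in WT and 4.17% (2 cells) in twi neutrophils. Those neutrophils had median depths of 2203 and 1994 UMIs, against 4201 and 4067 in effector CD8 T cells.

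The promoter windows of *Lef1* and *Id2* are shown because these genes had the lowest and the highest twi over WT ratio in effector CD8 T cells. All 10 genes matched the RefSeq promoter table (GRCm38.p6), and the windows are the 250 bases before the first listed start, read on the gene's strand, with capitals on the E-box letters CANNTG. Those letters read the same on both strands and are the ones E proteins bind. The *Lef1* window lies at chr3:131110047-131110296 on the plus strand, before the first exon of *Lef1* and inside the antisense gene *Gm43352*. Of the *Id2* window 161 bases fall in an exon of a longer *Id2* transcript, so only the 89 bases before it are printed, chr12:25096254-25096342 on the minus strand. Those 89 bases lie inside the annotated *Id2* gene (chr12:25093799-25097140) and outside its exons, not before the gene.
Lef1: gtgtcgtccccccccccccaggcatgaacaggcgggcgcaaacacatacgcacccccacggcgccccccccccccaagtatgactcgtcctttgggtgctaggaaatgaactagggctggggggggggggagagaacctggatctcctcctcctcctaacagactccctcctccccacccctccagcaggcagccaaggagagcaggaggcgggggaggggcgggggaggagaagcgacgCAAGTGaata
Id2: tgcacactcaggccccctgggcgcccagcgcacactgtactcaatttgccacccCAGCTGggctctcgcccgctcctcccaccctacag
Each held 1 match to CANNTG. That motif was in 5 of the 10 whole windows (*Tcf7*, *Lef1*, *Id2*, *Tbx21* and *Prdm1*) and in 66.2% of the 32841 windows of that length, so a match is common. The windows of *Bach2*, *Id3*, *Id2* and *Prdm1* lie inside the annotated genes, and the *Tcf7* match lies in a reading frame that opens within its window. A match is thus not always in sequence before the gene. The TCF/LEF core CTTTGA, searched on both strands, was in 1 of the 10 windows, that of *Bach2*, and in 13.8% of all windows. The T-box core GTGTGA, also searched on both strands, was in 0 of the 10 windows and in 12.3% of all.

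*Tcf7* (chr11:52252371-52283014, minus strand, GENCODE vM21 on GRCm38, the mm10 assembly) was lower in twi CD8 T cells. Over all CD8 T cells it read 389 CPM in WT (178 UMIs) and 172 CPM in twi (341 UMIs), a twi over WT ratio of 0.441 (0.367 to 0.531). In effector cells the levels were 349 CPM (269 to 446) in WT and 151 CPM (132 to 172) in twi. These intervals do not overlap, and the ratio was 0.432 (0.325 to 0.580). In naive cells the libraries read 455 CPM (358 to 570) and 444 CPM (355 to 549), a ratio of 0.976 (0.707 to 1.35). That naive ratio was 0.538 (0.188 to 1.20) among cells with a Y-linked transcript and no *Xist*, on 27 WT and 7 twi UMIs. Cycling cells, which were not split into naive and effector cells, read 350 and 101 CPM, a ratio of 0.288 (0.167 to 0.499). The share of effector cells with a *Tcf7* UMI was 73.3% (58.1 to 85.4) in WT and 37.2% (32.0 to 42.6) in twi. With every cell thinned to 1000 UMIs, which left out 6 twi cells, the shares were 33.3% and 14.2%. Among cells with a Y-linked transcript and no *Xist* the effector ratio was 0.684 (0.407 to 1.16), an interval that holds 1.

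*Lef1* (chr3:131110471-131224356, plus strand), the partner of TCF-1, was lower in the same cells. It read 382 CPM (298 to 483) in WT effector cells and 139 CPM (121 to 160) in twi effector cells. The ratio of 0.364 (0.276 to 0.485) was the lowest of the 9 factors with at least 20 UMIs there. Naive cells read 673 CPM (554 to 811) in WT and 695 CPM (582 to 823) in twi, and the 2 intervals nearly coincide. The share of effector cells with a *Lef1* UMI was 60.0% in WT and 36.6% in twi, and 26.7% and 13.9% at 1000 UMIs per cell. Within cells with a Y-linked transcript and no *Xist* the effector ratio was 0.495 (0.30 to 0.808), and over all CD8 T cells it was 0.675 (0.485 to 0.93) against 0.420 (0.354 to 0.499) in all cells. Of the UMIs of *Tcf7* and *Lef1* together, *Tcf7* made up 47.8% (39.1 to 56.6) in WT and 52.0% (47.1 to 56.8) in twi effector cells, so the balance of the pair did not differ beyond its intervals.

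*Satb1* (chr17:51736187-51833290, minus strand), a chromatin organiser of T cells, read 306 CPM (231 to 397) in WT and 184 CPM (162 to 207) in twi effector cells, a ratio of 0.601 (0.449 to 0.816), and among cells with a Y-linked transcript and no *Xist* it was 0.406 (0.223 to 0.72). In naive cells it read 431 and 340 CPM, with a ratio of 0.788 (0.554 to 1.12). *Bach2* (chr4:32238804-32586108, plus strand), a repressor of effector genes, was sparse in T cells, with 16 UMIs in all WT and 21 in all twi CD8 T cells. Its ratio over all CD8 T cells was 0.302 (0.150 to 0.619), but only 3 and 13 of those UMIs lay in effector cells and 10 and 3 in naive cells, so neither class reached 20 UMIs over both libraries. Its highest levels were in B cells, at 203 and 134 CPM. *Id3* (chr4:136143497-136145755, plus strand) read 98.3 CPM (58.2 to 155) in WT and 53.9 CPM (42.7 to 67.2) in twi effector cells, a ratio of 0.549 (0.326 to 0.973). In cells with a Y-linked transcript and no *Xist* the effector *Id3* ratio turned to 1.88 (0.777 to 6.03, on 6 WT and 21 twi UMIs).

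*Id2* (chr12:25093799-25097140, minus strand) had the largest difference in the other direction. WT effector cells read 295 CPM (221 to 385, 54 UMIs) and twi effector cells 994 CPM (943 to 1046, 1456 UMIs), a ratio of 3.37 (2.57 to 4.51). Cycling cells read 150 CPM (77.5 to 262) in 9 WT cells and 742 CPM (649 to 845) in 37 twi cells, a ratio of 4.95 (2.78 to 9.72). In naive cells the levels were 176 CPM (118 to 253) and 167 CPM (114 to 236), and the ratio was 0.950 (0.557 to 1.63). The difference was therefore seen in effector and cycling cells and not in the naive gate, where counting error still allows a ratio from 0.557 to 1.63.

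Single cells showed the same shift in *Id2*. The share of effector cells with a UMI was 44.4% (29.6 to 60.0) in WT and 83.0% (78.6 to 86.9) in twi. At 1000 UMIs per cell it was 17.8% and 55.8%. The share with 5 or more UMIs was 6.67% (3 of 45 cells) in WT and 35.7% (120 of 336) in twi, while it was 2.13% and 1.85% in naive cells. In neutrophil-gated cells, which may transcribe *Id2* themselves, 19.8% and 18.8% held a UMI.

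The size of the *Id2* difference depended on which WT cells counted as effector. With effector cells that held no UMI of the 4 naive genes, a choice made after seeing the data, 13 WT and 213 twi cells were left and the ratio was 1.42 (1.00 to 2.15). With *Gzmb* and *Cxcr6* as the gate, set against 2 of the 4 naive genes, 7 WT and 242 twi cells were left and it was 1.38 (0.885 to 2.45). The *Tcf7* ratio under these gates was 0.321 (0.168 to 0.764) and 0.344 (0.156 to 1.18). Among cells with a Y-linked transcript and no *Xist* the *Id2* ratio was 2.06 (1.38 to 3.23).

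**Figure D1:**
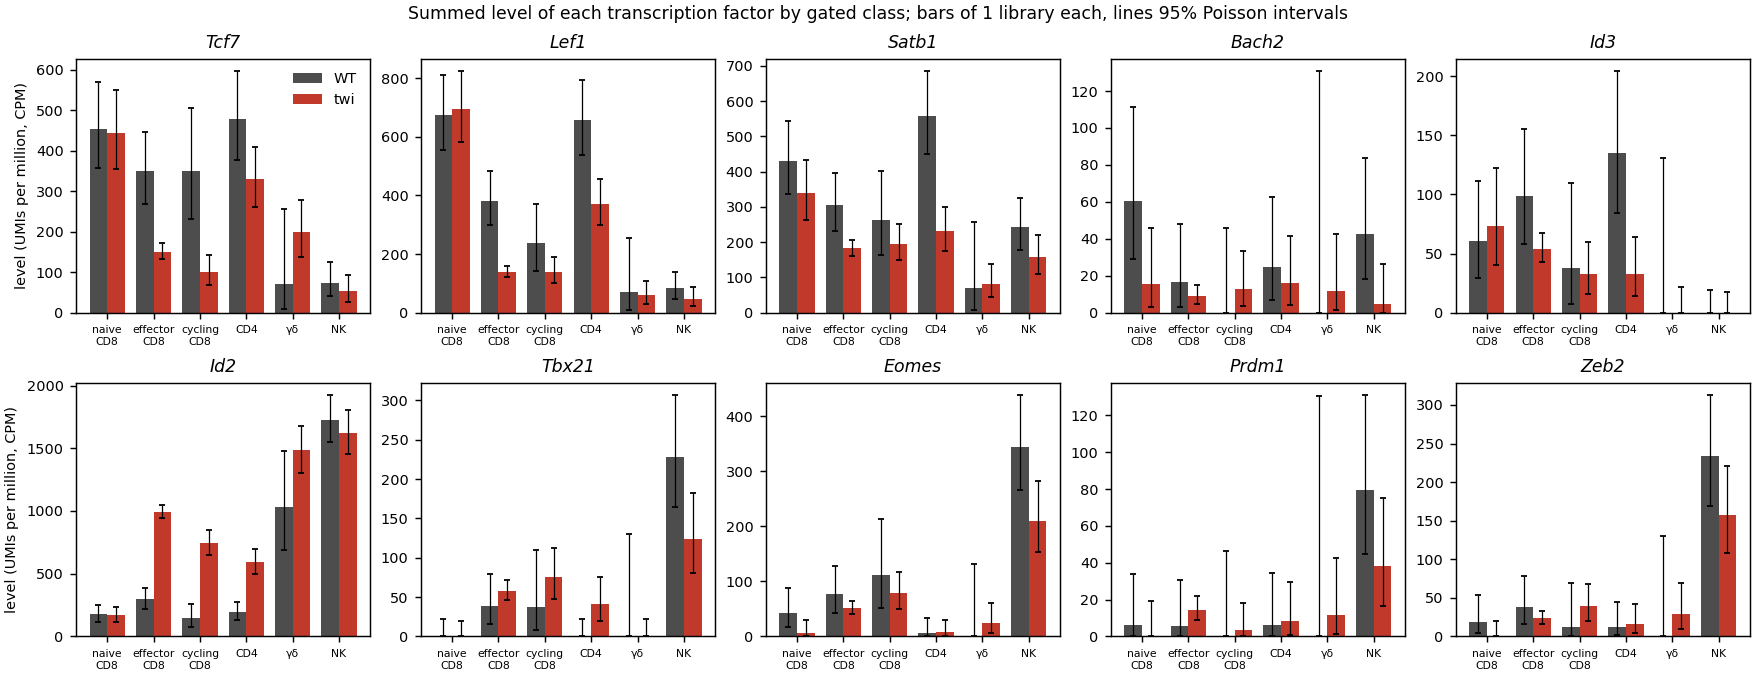
Level of each of the 10 factors in CPM (vertical axes, which differ between panels) in 6 gated classes of WT (grey) and twi (red) cells; each bar is 1 library and each line its 95% Poisson interval. Naive CD8 T cells of WT and twi stand close for *Tcf7*, *Lef1* and *Id2*, while effector CD8 T cells read 349 and 151 CPM for *Tcf7* and 295 and 994 CPM for *Id2*.

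**Figure D2:**
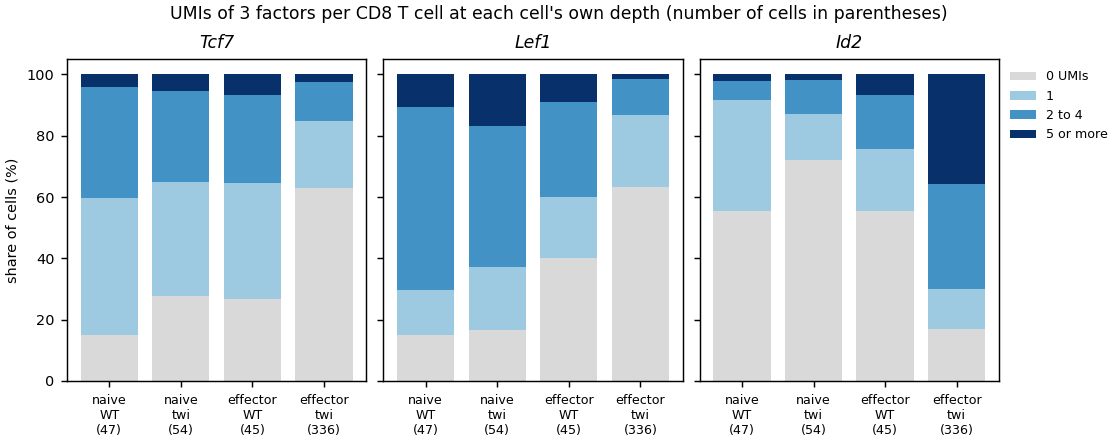
Share of naive and effector CD8 T cells (vertical axis, %) with 0, 1, 2 to 4, or 5 or more UMIs of *Tcf7*, *Lef1* and *Id2* at each cell's own depth; each column is 1 class of 1 library, with its number of cells. In twi effector cells 35.7% held 5 or more *Id2* UMIs against 6.67% in WT, and 211 of 336 held no *Tcf7* UMI against 12 of 45.

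The effector factors that bind DNA were less abundant and differed less clearly. *Tbx21* (chr11:97098071-97115331, minus strand) read 38.2 CPM (15.4 to 78.7, 7 UMIs) in WT and 58.0 CPM (46.3 to 71.7, 85 UMIs) in twi effector cells. Its ratio there was 1.52 (0.706 to 3.89), an interval that holds 1, and over all CD8 T cells it was 2.48 (1.30 to 5.33) on 10 WT UMIs. No naive CD8 T cell of either library held a *Tbx21* UMI, which at 3 counts allows levels of up to 18.2 CPM in WT and 15.7 CPM in twi. Among cells with a Y-linked transcript and no *Xist* the ratio over all CD8 T cells was 0.889 (0.244 to 3.05), on 7 WT and 6 twi UMIs. The effector ratio of *Tbx21* also turned with *Gzmb* and *Cxcr6* as the gate, to 0.222 (0.0984 to 0.771), and without naive-gene UMIs, to 0.413 (0.182 to 1.44), on 5 WT UMIs in each case.

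*Eomes* (chr9:118478212-118486132, plus strand) did not follow *Tbx21*. It read 76.4 CPM (41.8 to 128) in WT and 51.9 CPM (40.9 to 64.9) in twi effector cells, a ratio of 0.679 (0.381 to 1.30). Among cells with a Y-linked transcript and no *Xist* that ratio was 0.244 (0.0521 to 0.788), on 10 WT and 4 twi UMIs, while both stricter effector gates left 0 WT UMIs of *Eomes*. *Tbx21* made up 33.3% (14.6 to 57.0) of the UMIs of the pair in WT and 52.8% (44.8 to 60.7) in twi effector cells. Over all CD8 T cells the shares were 24.4% (12.4 to 40.3) and 51.4% (44.5 to 58.4), and these intervals do not overlap. In the Y-linked cells the shares over all CD8 T cells were 24.1% (10.3 to 43.5) and 42.9% (17.7 to 71.1), and there they overlap.

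*Prdm1* (chr10:44437177-44528501, minus strand) had 1 UMI in WT and 21 in twi effector cells, a ratio of 2.63 (0.422 to 109). The WT library holds too few *Prdm1* UMIs to place the ratio, and it was below 1 under 3 alternatives. *Zeb2* (chr2:44983632-45117395, minus strand) read 38.2 CPM (15.4 to 78.7) in WT and 23.2 CPM (16.1 to 32.4) in twi effector cells, with a ratio of 0.607 (0.265 to 1.62), and 8 twi and 0 WT UMIs were left at 1000 UMIs per cell. With *Gzmb* and *Cxcr6* as the gate the ratio was 0.126 (0.0489 to 0.545), on 4 WT UMIs, and without naive-gene UMIs it was 0.25 (0.0962 to 1.09). *Zeb2* is also a gene of microglia and B cells, and macrophage-gated cells read 441 and 645 CPM.

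Counted together, 9 of the 10 factors had at least 20 UMIs over both effector sums. At a 1.5-fold threshold 3 were higher in twi (*Id2*, *Tbx21* and *Prdm1*) and 5 were lower (*Tcf7*, *Lef1*, *Satb1*, *Id3* and *Zeb2*). Over all 6464 genes with as many UMIs, 29.3% were higher and 11.3% lower by that threshold. The median log2 ratio of the 9 factors was -0.75, and that of all genes 0.08. Over all CD8 T cells 3 of 10 were higher and 4 lower, where 21.1% and 9.12% of 7556 genes were. In naive cells 0 of 5 factors passed in either direction, beside 12.5% higher and 9.4% lower among 2042 genes. *Tcf7*, *Lef1*, *Satb1*, *Id3* and *Id2* are those 5, and the other factors were too sparse there.

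**Figure D3:**
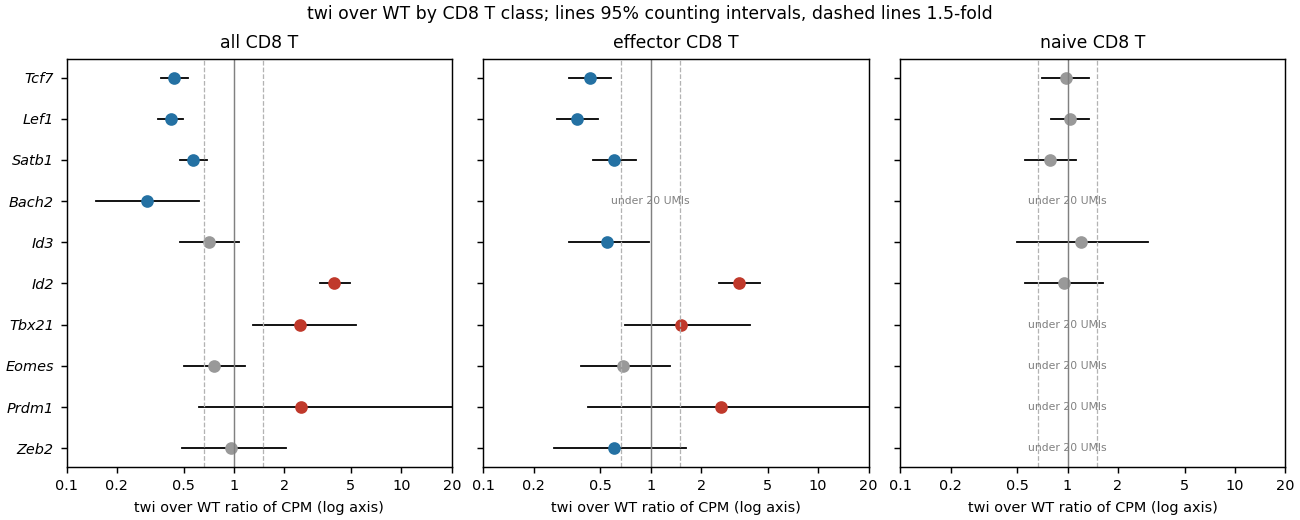
Ratio of twi over WT CPM (horizontal log axis) for each factor in all, effector and naive CD8 T cells; points are ratios of 1 library to 1 library, red where at least 1.5-fold higher, blue where at least 1.5-fold lower and grey between, and lines are 95% counting intervals, some of which run past the axis. *Tcf7*, *Lef1* and *Satb1* lie left of 1 and *Id2* right of 1 in the first panels, and all 5 factors with enough UMIs lie near 1 in naive cells.

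Within each library, effector cells were then set against naive cells. In twi these classes were not alike in sex, with *Xist* in 64.9% of effector and 29.6% of naive cells. The part of that difference in the twi ratios was not tested. In twi, *Tcf7* read 0.340 times (0.263 to 0.442) and *Lef1* 0.20 times (0.160 to 0.251) its naive level. *Satb1* stood at 0.541 (0.411 to 0.720) and *Id2* at 5.94 (4.19 to 8.72). *Tbx21*, with 85 UMIs in effector and 0 in naive twi cells, was at least 3.70-fold higher, taking 3 counts for the naive sum, and the counting interval of that ratio starts at 2.95. *Zeb2* was at least 1.48-fold higher by the same floor, with an interval from 1.14, and *Eomes* 9.93 (1.73 to 397) on 1 naive UMI. *Prdm1* had 21 and 0 UMIs, too few for a bound above 1.

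With the gates given first, the contrast was smaller in WT for the most abundant factors. *Tcf7* stood at 0.768 (0.541 to 1.09) and *Lef1* at 0.567 (0.415 to 0.772) of the naive level. *Id2* was 1.68-fold higher (1.05 to 2.73), on 54 and 29 UMIs. *Tbx21* had 7 and 0 UMIs and was at least 2.1-fold higher by that floor, with an interval from 1.30. The effector over naive ratios of the libraries, twi against WT, differed by a factor of 0.442 (0.292 to 0.671) for *Tcf7*, 0.353 (0.244 to 0.511) for *Lef1* and 3.55 (2.0 to 6.28) for *Id2*, with approximate intervals on the log scale. For *Satb1* that factor was 0.762 (0.489 to 1.19). Of the factors with at least 20 UMIs over both sums, 5 of 9 were higher and 3 lower at 1.5-fold in twi, beside 29.3% and 13.6% of 6509 genes. In WT 3 of 6 (*Id2*, *Id3* and *Eomes*) were higher and 1 lower, beside 14.7% and 11.9% of 1986 genes. In twi cells with a Y-linked transcript and no *Xist*, *Tcf7* stood at 1.04 (0.480 to 2.92) of the naive level, on 7 UMIs in 10 naive cells, and *Lef1* at 0.342 (0.193 to 0.627). In WT, *Id2* stood at 0.665 (0.265 to 1.53) with cells thinned to 1000 UMIs, but at 3.10 (1.40 to 8.80) in the Y-linked cells, at 5.16 (2.996 to 8.92) without naive-gene UMIs and at 4.95 (2.65 to 8.46) with *Gzmb* and *Cxcr6* as the gate. The twi *Id2* ratio was 7.72 without naive-gene UMIs, where WT stood at 5.16. With *Gzmb* and *Cxcr6* as the gate it was 4.12, below the 4.95 of WT. Whether the *Id2* contrast was smaller in WT thus depended on the gate, and the factor of 3.55 was not recomputed under the others. *Lef1* in WT stood at 0.291 (0.097 to 0.606) without naive-gene UMIs.

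**Figure D4:**
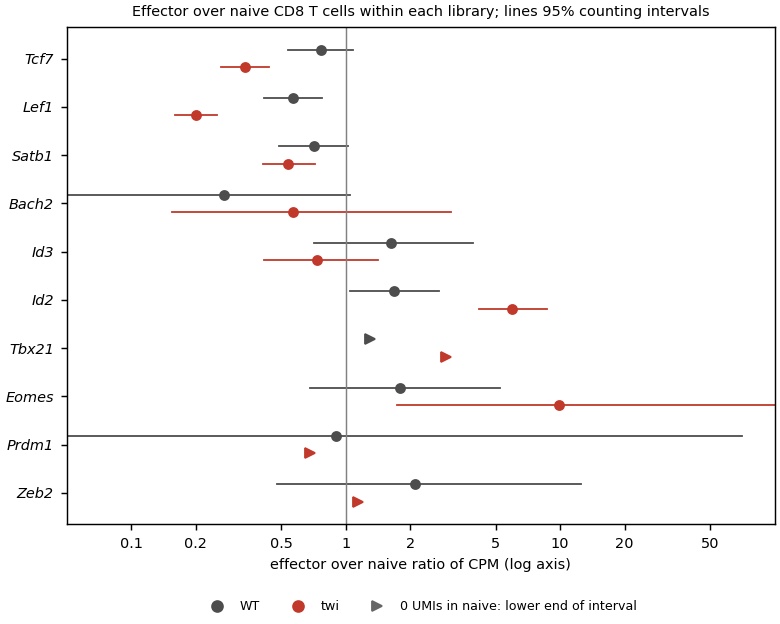
Ratio of effector over naive CPM (horizontal log axis) for each factor within WT (grey) and within twi (red); points are ratios of 2 sums of 1 library, lines 95% counting intervals, and arrowheads mark the lower end of the interval where naive cells held 0 UMIs. *Tcf7* stands at 0.768 in WT and 0.340 in twi, and *Id2* at 1.68 and 5.94.

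The make-up of the CD8 T cells differed as well: naive cells gave 36.0% of CD8 UMIs in WT and 9.63% in twi, and effector cells 40.1% and 73.7%. Weighting the WT class levels by the twi shares moved *Tcf7* from 389 to 360 CPM, where twi read 172. *Lef1* went from 461 to 388 CPM by the same arithmetic, where twi read 194. *Id2* went from 219 to 259 CPM, where twi read 868. For *Tbx21*, by contrast, the shares alone moved 21.9 to 34.0 CPM, toward the 54.3 CPM of twi. This arithmetic used only the gates given first, in which 55.6% of WT and 15.8% of twi effector cells carried *Ccr7*. With *Gzmb* and *Cxcr6* as the gate the effector *Id2* ratio was 1.38 in place of 3.37. The part of the class shares under stricter gates was not tested.

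The balance of the E protein inhibitors was then compared between genotypes. *Id2* gave 75.0% (63.4 to 84.5) of the *Id2* and *Id3* UMIs in WT effector cells and 94.9% (93.6 to 95.9) in twi ones. Among cells with a Y-linked transcript and no *Xist* the effector shares were 83.3% (67.2 to 93.6) and 84.0% (76.5 to 89.8), and without naive-gene UMIs they were 93.8% (79.2 to 99.2) and 96.6% (95.4 to 97.6). The difference in effector cells was therefore not seen in those cells or under that gate. In CD4 T cells the share was 59.3% (45.0 to 72.4) in WT and 94.8% (90.0 to 97.7) in twi, and in the Y-linked cells it was 55.3% (40.1 to 69.8) and 91.7% (73.0 to 99.0). In naive CD8 T cells it was 74.4% and 69.6%. In γδ T and NK cells of both libraries it was 100%. The 5 naive and memory factors together made up 71.8% (66.3 to 76.8) of all UMIs of the 10 factors in WT effector cells and 32.0% (30.1 to 33.9) in twi effector cells. Of those UMIs *Id2* alone gave 54 of 294 in WT and 1456 of 2458 in twi, so *Id2* carries much of that difference. The share without *Id2* was not computed. The share of the 5 factors stood at 67.3% (59.3 to 74.6) and 45.5% (39.2 to 52.0) in the Y-linked cells. Without naive-gene UMIs it was 40.9% (29.0 to 53.7) and 19.8% (17.8 to 21.9). In naive cells that share was 87.4% and 90.1%, and these intervals overlap.

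**Figure D5:**
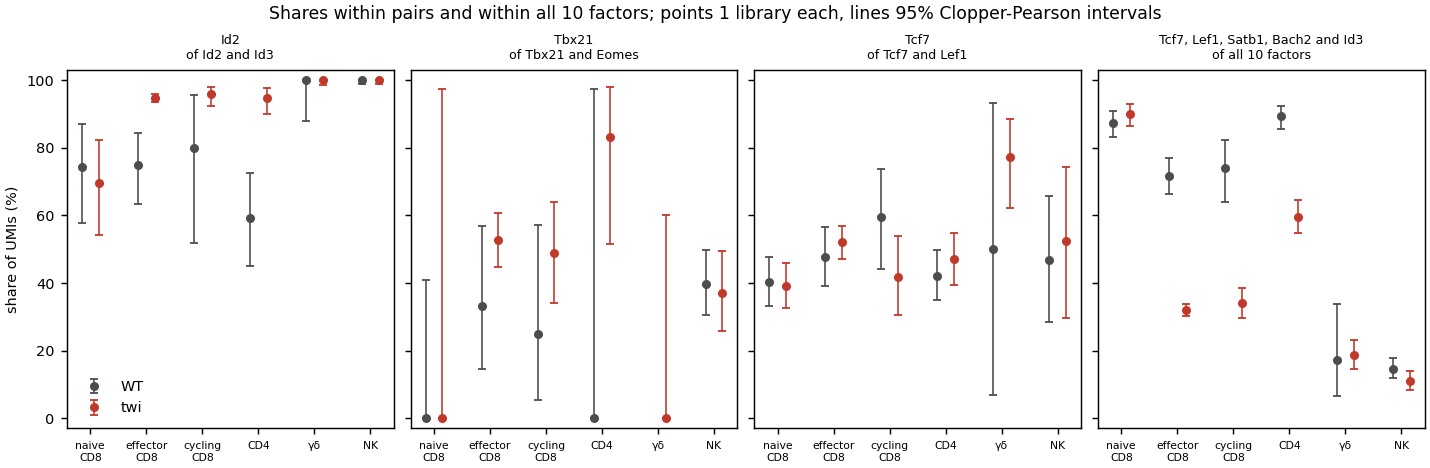
Share of UMIs (vertical axis, %) of *Id2* within *Id2* and *Id3*, *Tbx21* within *Tbx21* and *Eomes*, *Tcf7* within *Tcf7* and *Lef1*, and the 5 naive and memory factors within all 10, for 6 classes of WT (grey) and twi (red); points are 1 library each and lines 95% Clopper-Pearson intervals. The last share stands at 71.8% in WT and 32.0% in twi effector cells, at 89.3% and 59.7% in CD4 T cells, and at 14.6% and 10.9% in NK cells. In twi effector cells *Id2* alone gave 1456 of the 2458 UMIs of the 10 factors.

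CD4 T cells were not split into naive and effector cells, and markers of both states differed between the libraries. *Ccl5* read 129 CPM in WT and 2752 CPM in twi, *Cxcr3* was found in 10.2% and 37.5% of cells, and *Ccr7* in 59.2% and 41.7%. The part of that make-up in the values that follow was not tested. *Id2* read 196 CPM (134 to 277) in WT and 590 CPM (498 to 695) in twi CD4 T cells, a ratio of 3.01 (2.04 to 4.56). *Id3* read 135 CPM (84.5 to 204) and 32.6 CPM (14.1 to 64.2), with a ratio of 0.242 (0.093 to 0.563). *Satb1* had a ratio of 0.416 (0.293 to 0.586), *Lef1* one of 0.565 (0.422 to 0.754) and *Tcf7* one of 0.690 (0.499 to 0.954). At 1.5-fold 1 of 5 factors was higher and 3 were lower, beside 14.8% and 13.3% of 2689 genes. *Tbx21* had 0 UMIs in WT and 10 in twi CD4 T cells and was at least 2.21-fold higher by the 3-count floor, with an interval from 1.49. Among cells with a Y-linked transcript and no *Xist*, 32 in WT and 13 in twi, the *Id2* ratio was 1.70 (0.915 to 3.11) and that of *Satb1* 0.314 (0.131 to 0.609).

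NK cells gave the highest *Id2* levels, overlapping those of twi γδ T cells, and no difference between genotypes beyond counting error. They read 1729 CPM (1546 to 1927) in WT and 1625 CPM (1457 to 1807) in twi, a ratio of 0.940 (0.805 to 1.10). *Tbx21*, which NK cells need to mature, read 228 CPM (165 to 307) in WT and 124 CPM (81.2 to 182) in twi NK cells, a ratio of 0.545 (0.321 to 0.907). *Eomes* had a ratio of 0.610 (0.406 to 0.908), *Satb1* one of 0.646 (0.40 to 1.03) and *Prdm1* one of 0.481 (0.176 to 1.21). Of the 8 factors with at least 20 UMIs there, 0 were higher at 1.5-fold and 5 were lower, beside 11.4% and 15% of 2830 genes. The *Tbx21* ratio was 0.821 (0.308 to 1.999) among NK cells with a Y-linked transcript and no *Xist*, while it was 0.342 (0.119 to 0.78) at 1000 UMIs per cell. The *Eomes* ratio was 0.361 (0.154 to 0.716) among the Y-linked cells and 0.927 (0.42 to 1.99) at 1000 UMIs.

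γδ T cells, 10 in WT and 44 in twi, had high *Id2* and no UMI of *Id3* or *Tbx21*. Their *Id2* level was 1028 CPM (688 to 1476) in WT and 1484 CPM (1306 to 1678) in twi, a ratio of 1.44 (0.981 to 2.20). *Tcf7* had 2 UMIs in WT and 34 in twi, 15 of them in 1 cell, and a ratio of 2.82 (0.724 to 24.3). A further class of *Cd3*+ cells without *Cd4* or *Cd8* UMIs, added after seeing the data, held 135 WT and 241 twi cells. There *Tcf7* had a ratio of 0.548 (0.429 to 0.702), *Id2* one of 1.61 (1.40 to 1.86) and *Tbx21* one of 1.98 (1.18 to 3.50), while *Eomes* had one of 0.413 (0.244 to 0.695). Hemoglobin RNA (*Hba-a1* and *Hbb-bs*) read 1167 CPM in WT and 8670 CPM in twi in this class, and 39.3% and 43.2% of its cells held *Fcer1g*, and the part of either was not tested.

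Put in order of level, the classes fell differently for *Id2* and *Lef1*. Twi effector CD8 T cells stood next to WT γδ T cells (994 and 1028 CPM of *Id2*), and their intervals overlap. WT effector cells stood next to twi macrophages (295 and 271 CPM), again with overlapping intervals. *Lef1* was highest in naive CD8 T cells of both libraries and WT CD4 T cells (656 to 695 CPM), which overlap one another, and the next level, that of WT effector cells at 382 CPM, lies below them. *Tcf7* had the same 3 sums on top (444 to 478 CPM) without a gap to the next. For *Tcf7*, *Satb1*, *Bach2*, *Tbx21*, *Eomes* and *Prdm1* the intervals of all neighbours in the order overlap.

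Detection of *Tcf7* and *Id2* in the same twi effector cell was set against the number that independence within the class would give. Both were found in 94 of 336 cells, where 104 would follow from their separate shares (125 and 279 cells). At 1000 UMIs per cell both were found in 18 of 330 cells, where 26.2 would follow. *Tcf7* went with *Lef1* in 62 cells (45.8 from independence) and with *Id3* in 31 cells (19.0). Depth adds to such overlaps, and at 1000 UMIs the numbers were 11 (6.55) and 4 (1.85). In WT, *Tcf7* and *Id2* shared 13 of 45 cells, where 14.7 would follow.

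Splitting the twi effector cells at 1000 UMIs by a *Tcf7* UMI gave 47 cells with and 283 without. *Lef1* read 340 CPM in cells with *Tcf7* and 148 CPM in the others, a ratio of 2.29 (1.20 to 4.17). *Id2* read 766 and 1208 CPM, a ratio of 0.634 (0.436 to 0.895). Of the genes of CD8 T cell states examined beside them, *Slamf6*, *Il7r*, *Xcl1*, *Cd27*, *Pdcd1*, *Cx3cr1*, *Klrg1*, *Tox* and *Id3* all had intervals that hold 1, and *Havcr2* had 0 UMIs. *Il7r*, the receptor for IL-7, had 8 and 34 UMIs and a ratio of 1.42 (0.567 to 3.12). *Gzmb*, a granzyme used in the effector gate, read 106 and 512 CPM, a ratio of 0.208 (0.0664 to 0.496). The same split in WT left 15 and 30 cells, with 2 and 15 *Lef1* UMIs. There the *Lef1* ratio was 0.267 (0.0296 to 1.15) and that of *Gzmb* 2.67 (0.451 to 18.2), on the other side of 1 from twi with intervals that hold 1. *Ccl5*, also in the gate, stood at 1.48 (1.20 to 1.82) in WT and 0.809 (0.710 to 0.918) in twi, and *Cxcr6* at 10.0 (1.12 to 473, on 6 UMIs) and 0.585 (0.350 to 0.927).

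Of 40 further regulators of lymphocyte fate, 30 had at least 20 UMIs over both effector sums, with 10 higher and 8 lower in twi at 1.5-fold, beside 29.3% and 11.3% of all genes. The ratios of these regulators all use the gates given first, in which 55.6% of WT and 15.8% of twi effector cells carried *Ccr7*. They were not recomputed under stricter gates, in Y-linked cells or at 1000 UMIs. Among the lower ones, *Klf2*, which maintains *S1pr1*, had a ratio of 0.392 (0.346 to 0.445), *Klf3* one of 0.449 (0.301 to 0.687) and *Foxo1* one of 0.563 (0.352 to 0.938). *Ets1* stood at 0.584 (0.465 to 0.741), *Klf6* at 0.621 (0.489 to 0.795), *Nr4a2* at 0.531 (0.324 to 0.913) and *Sox4* at 0.148 (0.0611 to 0.364). The higher ones with intervals above 1 included *Ikzf3* (Aiolos) at 3.19 (1.43 to 8.82), *Batf*, an AP-1 partner of IRF4, at 3.25 (1.07 to 16.1), *Tcf3*, which encodes the E protein E2A, at 2.33 (1.04 to 6.49) and *Maf* at 6.00 (1.03 to 242, 1 WT UMI). *Ahr* had 0 WT and 32 twi UMIs. *Runx3*, needed for CD8 T cell identity, read within 1.5-fold in effector cells at 1.42 (1.02 to 2.02). Over all CD8 T cells 31 had at least 20 UMIs, 7 of them higher and 7 lower, beside 21.1% and 9.12% of all genes. Among the higher were *Runx3* at 1.52 (1.21 to 1.94), *Gata3* at 2.19 (1.20 to 4.35), *Runx2* at 2.82 (1.03 to 10.8) and *Bhlhe40* at 3.41 (1.51 to 9.55). Among the lower were *Foxp1* at 0.541 (0.435 to 0.675) and *Myb* at 0.212 (0.0886 to 0.505).

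In effector over naive cells, *Klf3* and *Foxp1* were lower and *Nr4a2* and *Ikzf2* higher at 1.5-fold in both libraries. *Klf3* read 0.588 (0.364 to 0.936) in WT and 0.295 (0.210 to 0.418) in twi, and *Foxp1* 0.486 (0.310 to 0.748) and 0.481 (0.350 to 0.671). *Klf2* read 0.974 (0.831 to 1.14) in WT and 0.402 (0.356 to 0.457) in twi.

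The genes whose levels ran most like each of 9 factors were sought over 14 sums (7 classes of 2 libraries, which share depth and library). They are given as a description. For *Tcf7* they were *Ipcef1*, *Ms4a6b* and *Rgs10* (Pearson r of 0.94, 0.93 and 0.93). *Lef1* was nearest to *Actn1* (0.96), *Rpl22l1* and *Fam101b*, and *Satb1* to *Actn1*, *Klf3* and *Tagap*. *Id2* was nearest to the MHC class I gene *H2-K1* (0.96), *Ppp1r12a* and *Atp2b4*. *Tbx21* was nearest to *Dapk2* and the NK receptor genes *Klrc1* and *Klrc2*, and *Eomes* to *Ifitm10*, *Samd3* and *Ctla2b*. *Prdm1* was nearest to *Tyrobp* and *Fcer1g*, adaptor genes of NK and myeloid cells, and *Spty2d1*. *Id3* was nearest to *Btla*, *Rhoh* and *Dpp4*, and *Zeb2* to *Mgrn1*, *Lat2* and *Skap2*. With a pseudocount of 50 CPM in place of 10, all 3 genes were shared for *Satb1*, *Id2* and *Tbx21*, 2 for *Tcf7*, *Lef1* and *Eomes*, and 1 for *Id3*, *Prdm1* and *Zeb2*.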

How the data were processed

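For each genotype the authors deposited a matrix of UMI counts, not normalized, with genes by barcodes, from 1 pooled library. The submitters' processing notes name Cell Ranger 2.1.1 and mm10. How reads of overlapping genes were counted is not given in the sources used here; GENCODE vM21 places other genes over *Tcf7*, *Lef1*, *Satb1*, *Bach2*, *Eomes* and *Zeb2*. The members and lists were chosen with earlier results of these data known.

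T gates required 1 *Cd3* UMI, under 0.5% B, under 3% neutrophil and under 3 macrophage UMIs, and the NK gate no *Cd3*, *Cd4* or *Cd8* and 2 UMIs of NK genes. Cycling cells had 3 UMIs of 9 cell cycle genes and γδ T cells 2 of the γδ genes. No doublet caller was run; leaving out the deepest cells stands in for it. UMIs were summed per class and library and scaled to CPM. Levels carry exact Poisson intervals, CPM ratios the exact conditional interval of a pair of Poisson counts, and shares Clopper-Pearson intervals (scipy 1.17.1, pandas 2.3.3, numpy 2.4.6). UMIs of 1 cell are not independent, which the intervals do not cover. A ratio was called at 1.5-fold with at least 20 UMIs over both sums. Medians and the ratios recomputed under alternatives add 0.5 UMIs to each sum, except where the alternative changed that or averaged CPM per cell. The ratios under the gates given first and all intervals add none. For bounds, a sum of 0 was taken as 3 counts. Named genes are all 10 members, their 3 nearest genes (at least 100 UMIs, log2(CPM + 10)), and, of the 40 other regulators, those past 1.5-fold in both libraries or with intervals that leave out 1. The nearest genes of *Bach2* and 1 gene of the naive gate are not reported here. The procedures were tested on simulated counts, drawn independently for each gene. Dependence within cells and RNA of other cells were not simulated. Alternatives were other gates, depths, scalings, thresholds and cells.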

Additional observations from a re-analysis of the deposited data

How the results depend on the processing

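There were 18 settings, 16 of them planned and 2 added after seeing the data. Over 15 of them 777 member ratios were recomputed and 736 kept their direction. The others, 2-fold, no minimum and 50 UMIs, changed only the counts of factors past the threshold. Of those past the threshold 19 turned, given here as log2 ratios with 0.5 UMIs added to each sum. For *Zeb2* at 1000 UMIs, and for WT *Eomes* under both stricter gates, a sum was 0 and the ratio rests on the added UMIs. In cells with a Y-linked transcript and no *Xist* they were, twi over WT, *Bach2* (0.40) and *Tbx21* (-0.17) over all CD8 T cells and *Id3* (0.91) and *Tbx21* (-0.28) in effector cells, and, effector over naive, *Id3* in WT (-0.39) and *Tcf7* (0.054) and *Eomes* (-0.60) in twi. At 1000 UMIs per cell they were *Prdm1* over all CD8 T cells (-0.37), *Prdm1* (-1.29) and *Zeb2* (1.21) in effector cells, and *Id2* (-0.59) and *Eomes* (-0.67), effector over naive in WT. With *Gzmb* and *Cxcr6* against 2 naive genes they were *Tbx21* (-2.17) and *Prdm1* (-0.49), twi over WT in effector cells, and *Id3* (-0.27) and *Eomes* (-1.47), effector over naive in WT. Without naive-gene UMIs they were *Tbx21* (-1.28) and *Eomes* (-1.59) in the same comparisons, and without limits on other lineages *Prdm1* (-0.19). In twi over WT effector cells, 1 factor instead of 3 was higher without limits on other lineages, with *Gzmb* and *Cxcr6* against 2 naive genes, at 1000 UMIs or without naive-gene UMIs; 2 instead of 5 were lower in the Y-linked cells or at 2-fold and 3 at 1000 UMIs. In WT effector over naive cells, 0 instead of 3 were higher at 1000 UMIs or at 2-fold, 1 with *Gzmb* and *Cxcr6*, in the Y-linked cells, at 50 UMIs or without naive-gene UMIs, and 5 with no minimum; lower were 5 with *Gzmb* and *Cxcr6*, 3 at 1000 UMIs or without naive-gene UMIs, 2 with no minimum and 0 in the Y-linked cells or at 2-fold, instead of 1. In twi effector over naive cells 1 instead of 5 was higher in the Y-linked cells or at 1000 UMIs, and 3 at 50 UMIs. The cause was not tested. Shares within pairs of factors under other cells, and nearest genes shared with another pseudocount, were also added after seeing the data. The effector *Id2* ratio, twi over WT, ran from 1.38 to 4.92 and that of *Tcf7* from 0.321 to 0.684 over 15 settings. The WT side, with 45 effector cells, sets the precision. No paired analysis was possible because each genotype has a single pooled library.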
